A study of Mus musculus with 6 samples.

Results

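The interleukin-6 (IL-6) family was followed through 8 genes, namely the cytokines Il6, Lif and Il11, the receptor chains Il6ra, Il6st, Lifr and Osmr, and the transcription factor Stat3. They were chosen by gene symbol from the 49315 genes of the count table, and each symbol matched 1 row. The libraries came from total RNA of bEND.3 cells, an immortalized mouse endothelial line from brain, labelled with no other allele or agent than the oligonucleotide they received. The cells were transfected by Lipofectamine 2000 with 100 nM of an antisense GapmeR against the long non-coding RNA Gm39822 or with 100 nM of a negative control GapmeR. A GapmeR is a short oligonucleotide whose DNA core lets RNase H cut the paired RNA. The 2 negative control libraries held 29261988 and 34266811 counts, and GapmeR libraries 1 to 4 held 33074972, 37117934, 30264086 and 31067184. Because 1 cell line, 1 targeting oligonucleotide and 1 control oligonucleotide were used, an effect of the transcript and an effect of the oligonucleotide cannot be told apart. The labels do not say whether samples of a group came from separate cultures, so p-values measure the spread between these samples.

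Cytokines of this family signal through a shared receptor chain, gp130, which is encoded by Il6st. IL-6 binds the IL-6 receptor alpha chain (Il6ra) and IL-11 binds its own alpha chain before gp130 is engaged, whereas LIF pairs gp130 with the LIF receptor (Lifr) and oncostatin M pairs it with the oncostatin M receptor (Osmr) or the LIF receptor. Janus kinases bound to these chains phosphorylate STAT3, which enters the nucleus and activates genes that include its own inhibitor Socs3. Endothelial cells are known both to secrete IL-6 when activated and to respond to it.

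The targeted transcript was examined first. Gm39822 (ENSMUSG00000110618, chromosome 11, 51897312 to 51909624 on mm10) had 61 and 56 counts in the negative controls against 2, 1, 4 and 2 across GapmeR samples 1 to 4. It was low in every GapmeR sample, and the groups did not overlap. The pooled ratio of GapmeR to control counts, each divided by the total counts of its group, was 0.0372 (95% exact Clopper-Pearson interval 0.0166 to 0.0730), and the p-value, adjusted by Benjamini and Hochberg's method, was 8.8e-08 in the quasi-likelihood test of edgeR, which is used throughout. Intervals of this kind cover counting error only.

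The labelled cell type was examined next. Of 15 endothelial marker genes, 14 passed the filter of 5 or more counts in 2 or more samples, and their most abundant gene was Egfl7, an endothelium-secreted factor, at a mean of 2736 CPM, the count scaled to library size with edgeR's TMM factors. Summed endothelial markers were 11454 and 11007 CPM in the controls against 10383, 9180, 10511 and 10482 CPM across GapmeR samples 1 to 4. Of the 14 genes, 7 fell and 2 rose (64.3% called), where 45.3% of all genes tested were called, 20.0% lower and 25.4% higher. Slco1a4, an organic anion transporter of brain endothelium, had 1 count in all 6 samples together, so this 1 marker was all but absent. Cldn5 and Abcb1a of the same list, named as is Slco1a4 after their values were seen, averaged 1528 and 6.82 CPM over the 6 samples.

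The summed level of 14 macrophage markers was 180 and 176 CPM in the controls against 231, 212, 363 and 395 CPM across GapmeR samples 1 to 4. All GapmeR samples lay above both controls, with samples 3 and 4 the highest. Of the 14 macrophage markers, none was at 0 in all samples, and 3 rose and 11 did not pass the test (21.4% called, against 45.3% of all genes tested). Cd14, named after its values were seen, had a lower mean with the GapmeR (log2 fold change -0.48, adjusted p = 0.0805). The most abundant was Lyz2, a lysozyme, at 68.8 and 62.1 CPM in the controls against 79.1, 73.5, 168 and 206 CPM across GapmeR samples 1 to 4. Fibroblast and mural markers summed to 16.2 and 17.2 CPM in the controls against 23.0, 22.0, 84.2 and 27.8 CPM across GapmeR samples 1 to 4. The most abundant of them, the receptor gene Pdgfra, was at 10.7 and 10.4 CPM in the controls against 12.1, 9.43, 10.2 and 11.9 CPM across GapmeR samples 1 to 4. The collagen genes Col1a1 and Col1a2, named as is Myh11 after their values were seen, stood at 38.0 and 25.2 CPM in GapmeR sample 3 and at no more than 4.58 CPM in any other sample. Of the 10 markers tested, 1 passed the test, the smooth muscle myosin gene Myh11, which rose from a mean ± SD of 0.308 ± 0.0809 CPM over the 2 controls to 5.64 ± 0.296 CPM over the 4 GapmeR samples (adjusted p = 9.9e-10). In bulk RNA, fewer cells of a type and less RNA per cell cannot be told apart, and the part of these markers in the results below was not tested. With GapmeR samples 3 and 4 left out, a choice made after seeing the data, 4 family genes were lower and 1 was higher, as with all samples. Log2 fold changes were then -0.96 for Il6, -1.07 for Lifr, -0.54 for Osmr, -0.41 for Stat3 and 2.36 for Il11. This choice does not take the markers out. GapmeR samples 1 and 2 also lay above both controls in the macrophage sum and in the fibroblast and mural sum.

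In bEND.3 cells with the Gm39822 GapmeR, the IL-6 messenger RNA, the LIF and oncostatin M receptor chains and Stat3 fell, Il11 rose from a level near the detection limit, and no change of Lif, Il6ra or Il6st passed the test. All 8 genes passed the filter on low counts. Of them, 5 or 62.5% had an adjusted p under 0.05, with 4 lower and 1 higher. Across all 18234 genes tested, 45.3% had an adjusted p under 0.05, 20.0% lower and 25.4% higher. Groups did not overlap for 6 of the 8 genes, with 4 lower and 2 higher, against 59.2% of all genes, 27.3% lower and 31.9% higher. With a change of at least 1.5-fold also required, 3 genes were lower and 1 was higher, where 7.62% of all genes were lower and 17.8% higher. The median log2 fold change was -0.30 over the 8 genes and 0.03 over all genes tested.

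Il6 (ENSMUSG00000025746) encodes the founding cytokine of the family and lies on chromosome 5 of mm10 from 30013114 to 30019975, on the plus strand. Its RefSeq promoter sequence, chr5:30012864-30013113 on the plus strand of GRCm38.p6 (the assembly of mm10), is shown because Il6 had the highest level per length of the 3 cytokines and its regulators are examined further on. Capitals mark the matches to motifs of transcription factors known to act on Il6.

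Il6 promoter: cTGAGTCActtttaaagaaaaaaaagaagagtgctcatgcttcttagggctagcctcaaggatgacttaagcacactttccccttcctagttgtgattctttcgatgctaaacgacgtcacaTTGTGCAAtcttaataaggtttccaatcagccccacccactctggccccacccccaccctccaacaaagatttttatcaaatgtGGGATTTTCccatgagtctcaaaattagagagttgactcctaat

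Searched on both strands were GGGANTTTC for NF-kappa B, TTGCNNAA for C/EBP, TGANTCA for AP-1, TTCNNNGAA for STAT and TGACGTCA for CREB proteins. In the Il6 window, the kappa B match lay 44 to 36 bases before the start on the plus strand, the C/EBP match 128 to 121 bases before it on the minus strand and the AP-1 match, which reads on both strands, 249 to 243 bases before it, with no overlap among them. Among 32851 RefSeq promoter windows of the same 250 bases, 0.941% held the kappa B letters, 9.56% the C/EBP letters and 6.75% the AP-1 letters. The STAT letters were held by 7.02% and the CREB letters by 1.55% of windows, and neither was in that of Il6. All 8 genes had at least 1 window. Lif held an AP-1 match 228 to 222 bases before its start and a second promoter of Il11 held one 98 to 92 bases before its start, whereas the windows of Il6ra, Il6st, Lifr, Osmr and Stat3 held none of these letters. A match describes the sequence and is not a measured binding site, and the absence of a match says only that these letters are not in the window.

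Il6 expression was 18.8 and 19.5 CPM in the controls against 9.95, 9.53, 8.25 and 7.99 CPM across GapmeR samples 1 to 4. The highest GapmeR sample was well below the lower control. Mean expression fell 2.14-fold, from a mean ± SD of 19.2 ± 0.484 CPM over the 2 controls to 8.93 ± 0.955 CPM over the 4 GapmeR samples, for a log2 change of -1.10 (standard error, SE, 0.11, 95% interval -1.33 to -0.87, adjusted p = 5.2e-07). Of all genes tested, 3.29% had a lower log2 fold change. The two-sided exact permutation test gave p = 0.0667 for Il6, which is the smallest value that 15 splits of 4 against 2 samples allow, so that no single gene can reach 0.05 by this test. The same p was obtained for Il11, Il6st, Lifr, Osmr and Stat3, and exact permutation p = 0.4 for Lif and for Il6ra. The 3 genes whose profile over the 6 samples was most like that of Il6, by root-mean-square difference of centred log2 values among 12772 genes, were Hs3st1 (0.0594), Myct1 (0.0693) and Fzd7 (0.0728), which encode a heparan sulfate sulfotransferase, a target of MYC and a receptor for WNT proteins.

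The study's own quantitative PCR for Il6 used a primer pair that is shown because it fixes which piece of the messenger RNA was read in that assay.

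Il6 forward primer: ctgcaagagactccatccag

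Il6 reverse primer: agtggtatagacaggtctgttgg

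On the GENCODE transcripts of Il6 (GRCm39) the reverse primer matched exactly within exon 2, at chromosome 5, 30218476 to 30218498. The forward primer as listed spanned exons 1 and 2 and lacked 1 base of the transcript. The product on the transcript was 131 bp and lay in 3 annotated transcripts, whereas the counts used here cover every exon of the gene.

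Lif (ENSMUSG00000034394, chromosome 11, 4257568 to 4272514, on mm10 as are the positions that follow) encodes leukemia inhibitory factor and was close to the limit of detection. It had 1 and 5 counts in the controls against 2, 6, 8 and 7 counts across GapmeR samples 1 to 4. The groups overlapped. The log2 fold change was 0.74 (95% interval -0.89 to 2.36, adjusted p = 0.456), and the pooled ratio of GapmeR to control counts was 1.85 (95% counting interval 0.733 to 5.56), so a change of Lif was not detectable at this depth. The value was 0.13 without negative control sample 1 and 2.13 without negative control sample 2.

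Il11 (ENSMUSG00000004371, chromosome 7, 4772373 to 4782907) encodes interleukin-11, a cytokine linked to fibrosis. It had 1 and 3 counts in the controls against 10, 16, 9 and 9 counts across GapmeR samples 1 to 4, where 3 counts amount to 0.0771 to 0.110 CPM in these libraries. Each GapmeR sample lay above both controls, and GapmeR sample 2 stood above the other GapmeR samples. Expression averaged 0.0653 ± 0.0407 CPM (mean ± SD) over the 2 controls and 0.319 ± 0.0619 CPM over the 4 GapmeR samples, for a log2 change of 2.19 (SE 0.64, 95% interval 0.83 to 3.56, adjusted p = 0.0109). The pooled ratio of counts was 5.31 (95% counting interval 1.93 to 20.4). Without negative control sample 1 the log2 fold change was 1.75 and the adjusted p was 0.0954, so that the call rested on that library, and without negative control sample 2 the value was 3.03. In the GRCm39 annotation the nearest upstream protein-coding gene on the strand, Tmem238, ends 1.70 kb away and was read at 45.6 CPM in the controls and 47.8 CPM with the GapmeR.

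**Figure D1:**
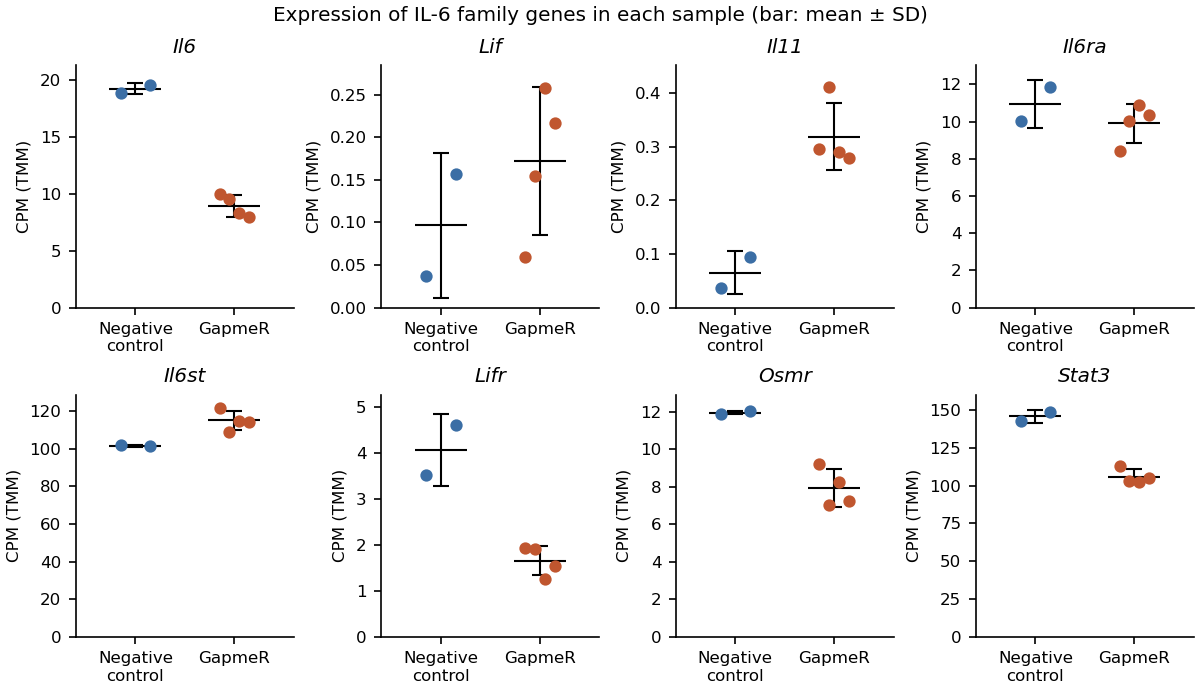
TMM-scaled CPM of the 8 IL-6 family genes in each sample, with negative control samples in blue, GapmeR samples in red, and bars for the mean ± SD. Il6, Lifr, Osmr and Stat3 lay lower in all 4 GapmeR samples than in both controls, Il11 and Il6st lay higher in all 4, and the groups overlapped for Lif and Il6ra.

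Of the receptor chains, Lifr and Osmr, which are specific to other ligands of the family, fell. The signal-transducing chain Il6st and the IL-6 binding chain Il6ra did not pass the test. Il6ra (ENSMUSG00000027947, chromosome 3, 89869324 to 89913196) was at 10.0 and 11.8 CPM in the controls against 8.44, 10.0, 10.9 and 10.3 CPM across GapmeR samples 1 to 4. GapmeR sample 1 was the lowest, and the groups overlapped. The log2 fold change was -0.15 (95% interval -0.41 to 0.12, adjusted p = 0.357), and it turned to 0.0037 when libraries were scaled by their size only and to 0.0024 without negative control sample 2.

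Il6st (ENSMUSG00000021756, chromosome 13, 112464070 to 112506860), the gene of gp130, was at 101.9 and 101.2 CPM in the controls against 121.6, 109, 114.9 and 114.4 CPM across GapmeR samples 1 to 4. Each GapmeR sample lay above both controls. Its log2 change was 0.18 (SE 0.07, 95% interval 0.03 to 0.33), and its adjusted p of 0.0511 fell just short of the threshold. It passed with libraries scaled by size only (log2 fold change 0.33, adjusted p = 0.00117), with at least 10 counts required in every sample (0.23, adjusted p = 0.0158) and without GapmeR sample 2 (0.21, adjusted p = 0.00889).

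Lifr (ENSMUSG00000054263, chromosome 15, 7090610 to 7197489), which encodes the LIF receptor, had 96 and 147 counts in the controls against 65, 74, 39 and 50 counts across GapmeR samples 1 to 4. All GapmeR samples were below both controls, and GapmeR samples 3 and 4 were the lowest. Expression fell 2.44-fold, from a mean ± SD of 4.06 ± 0.779 CPM over the 2 controls to 1.66 ± 0.316 CPM over the 4 GapmeR samples, for a log2 change of -1.29 (SE 0.21, 95% interval -1.73 to -0.84, adjusted p = 0.00011). This was the lowest log2 fold change of the 8 genes, and 2.23% of all genes tested had a lower one.

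Osmr (ENSMUSG00000022146, chromosome 15, 6813568 to 6874968), the gene of the oncostatin M receptor, was at 11.9 and 12.0 CPM in the controls against 9.24, 7.04, 8.29 and 7.24 CPM across GapmeR samples 1 to 4. The groups did not overlap. Expression fell 1.51-fold, for a log2 fold change of -0.59 (SE 0.12, 95% interval -0.85 to -0.33, adjusted p = 0.00106). The ligand of this receptor, Osm, had 0 and 2 counts in the controls against 5, 4, 4 and 3 counts across GapmeR samples 1 to 4 and did not pass the filter.

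Stat3 (ENSMUSG00000004040, chromosome 11, 100886806 to 100939594), the transcription factor downstream of gp130, was at 143 and 149 CPM in the controls against 113, 103, 102 and 105 CPM across GapmeR samples 1 to 4. All GapmeR samples lay below both controls. Expression fell 1.38-fold, from a mean ± SD of 146 ± 4.40 CPM over the 2 controls to 106 ± 4.93 CPM over the 4 GapmeR samples, for a log2 change of -0.46 (SE 0.07, 95% interval -0.61 to -0.31, adjusted p = 5.9e-05). In the GRCm39 annotation Stat3 overlaps Stat5a on the opposite strand, and whether the counting used strand is not given in the sources used here, so that reads in the overlap cannot be told apart. Stat5a itself, another STAT of cytokine receptors, was at 8.63 CPM in the controls and 8.71 CPM with the GapmeR. The 3 genes with profiles most like that of Stat3 by the same measure were Tgoln1 (0.0225), Acaa2 (0.0226) and Vwa5a (0.0254), of which Tgoln1 encodes a protein of the trans-Golgi network and Acaa2 a mitochondrial thiolase.

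**Figure D2:**
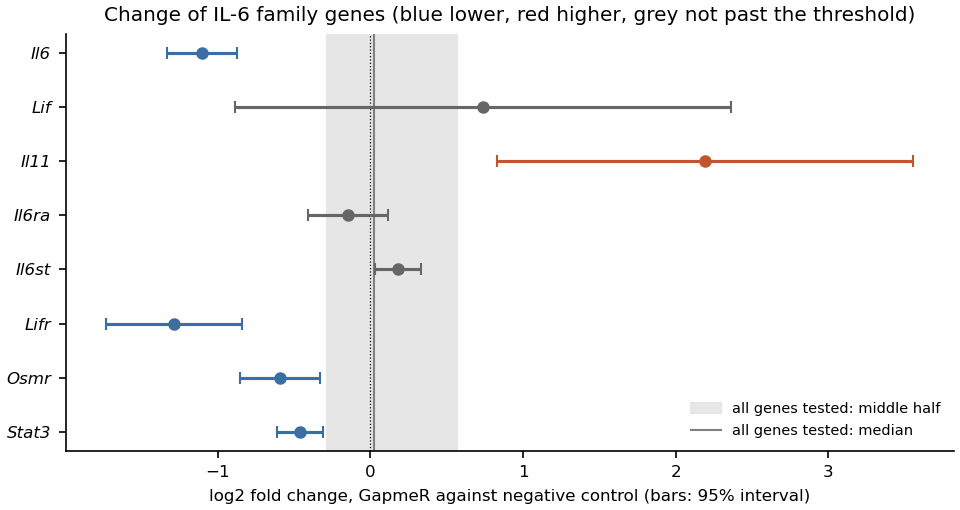
Log2 fold change of each gene, GapmeR against negative control, with its 95% interval from edgeR, in blue where lower and red where higher with an adjusted p under 0.05 and in grey otherwise. The grey band holds the middle 50% of all genes tested and the grey line their median of 0.03. The intervals of Lifr, Il6, Osmr and Stat3 lie below 0, and that of Il11 is wide and lies above 0. The intervals are not adjusted for the number of genes, and that of Il6st (0.03 to 0.33) lies above 0 although its adjusted p of 0.0511 missed the threshold.

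Because a ratio of 2 genes within a library does not depend on scaling between libraries, each receptor chain was also set against Il6st. Lifr counts were 3.46% and 4.57% of Il6st counts in the controls against 1.59%, 1.76%, 1.11% and 1.37% across GapmeR samples 1 to 4. Osmr counts were 11.7% and 11.9% of Il6st counts in the controls against 7.61%, 6.47%, 7.23% and 6.34% across GapmeR samples 1 to 4. Il6ra counts were 9.87% and 11.7% of Il6st counts in the controls against 6.95%, 9.20%, 9.47% and 9.05% across GapmeR samples 1 to 4. All 3 ratios were lower in every GapmeR sample than in both controls. They share the denominator Il6st, whose CPM was higher in every GapmeR sample and so lowers each of them. For Il6ra, the CPM itself overlapped between the groups.

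On the log2 scale, with 0.5 counts added, the ratio to Il6st differed between GapmeR and control means by -1.47 for Lifr and by -0.78 for Osmr, each with p = 0.0667 in the two-sided exact permutation test and 0.111 after Benjamini-Hochberg adjustment over the 5 ratios computed. The difference was -0.32 for Il6ra (exact permutation p = 0.133, adjusted 0.167), and -0.45 to -0.20 when each sample was left out in turn. The log2 ratio of Osmr to Lifr was higher by 0.69 with the GapmeR, and the groups did not overlap (exact permutation p = 0.0667, adjusted 0.111). The log2 ratio of Lif to Il6 differed by 1.89 with overlapping groups (exact permutation p = 0.2, adjusted 0.2), and by 1.09 without negative control sample 1 and 2.69 without negative control sample 2. None of these could reach 0.05 with 4 against 2 samples.

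**Figure D3:**
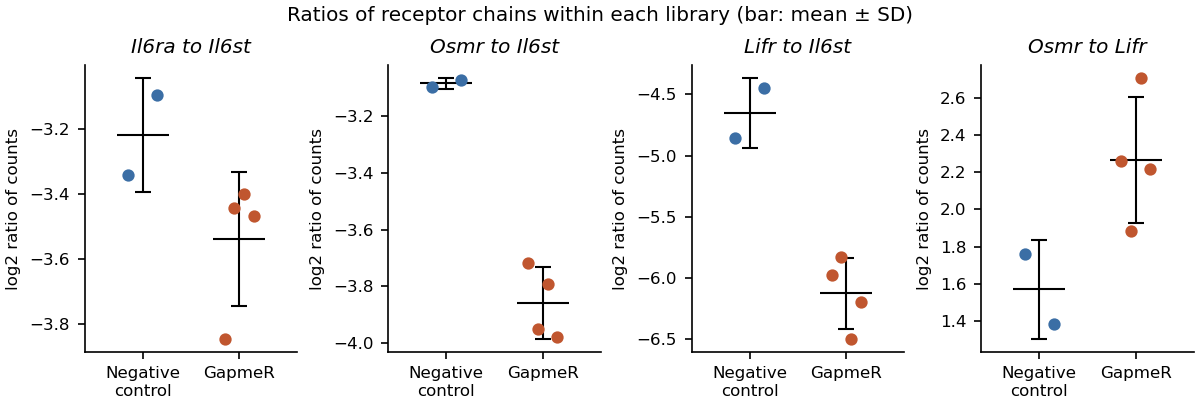
Log2 ratio of the counts of 2 receptor chains within each library, by sample, with bars for the mean ± SD. The ratios of Il6ra, Osmr and Lifr to Il6st lay lower in all 4 GapmeR samples than in both controls, and that of Osmr to Lifr lay higher.

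To compare levels between genes, CPM was divided by the exon length of each gene in kb. In the controls Stat3 was highest at 14.5 ± 0.436 CPM per kb (SD, n = 2), followed by Il6 at 7.90 ± 0.199, Il6st at 6.54 ± 0.0325, Il6ra at 1.24, Osmr at 0.965, Lifr at 0.294, Il11 at 0.0314 and Lif at 0.0210 CPM per kb. Neighbours in this order were separated in both controls except Il11 and Lif. With the GapmeR, Stat3 was still highest at 10.5 ± 0.489 CPM per kb (SD, n = 4), but Il6st at 7.40 ± 0.334 now lay above Il6 at 3.68 ± 0.393. Il11 at 0.153 and Lifr at 0.120 CPM per kb overlapped after knockdown, where Lifr had been above Il11 in both controls.

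**Figure D4:**
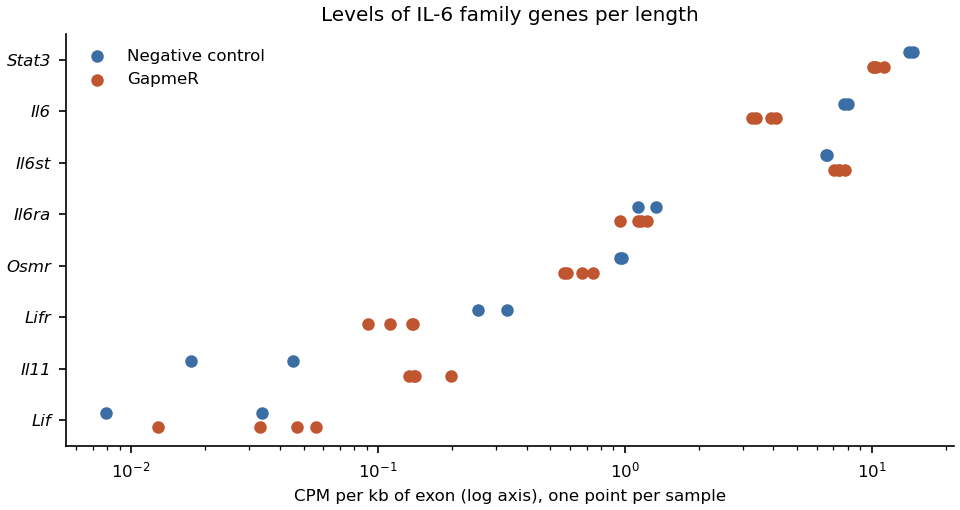
CPM per kb of exon of each gene on a log axis, 1 point per sample, with negative control samples in blue and GapmeR samples in red. The levels span from Stat3 at 14.5 CPM per kb in the controls to Lif at 0.0210, and Il6 lay above Il6st in the controls and below it with the GapmeR.

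Around these genes, 8 lists of related genes were examined, whose counts stand beside 45.3% of all genes tested called, 20.0% lower and 25.4% higher. Among 10 other family ligands, 4 passed the filter, of which 1 passed the test. It was Cntf, which encodes ciliary neurotrophic factor, with 4 and 10 counts in the controls against 83, 153, 87 and 85 counts across GapmeR samples 1 to 4. Its expression rose from a mean ± SD of 0.230 ± 0.118 CPM over the 2 controls to 2.95 ± 0.667 CPM over the 4 GapmeR samples, for a log2 change of 3.64 (SE 0.36, adjusted p = 5.4e-07). It was 3.24 without negative control sample 1 and 4.33 without negative control sample 2. In the GRCm39 annotation Cntf lies 0.377 kb downstream of Zfp91 on the same strand and overlaps Gm44505, and Zfp91 was at 230 CPM in the controls and 185 CPM with the GapmeR. Counts by gene do not show where reads between such neighbours begin. Clcf1, a ligand of the same receptor as Cntf, had a log2 fold change of -0.30 and an adjusted p of 0.0535, and 1 ligand of the list fell when GapmeR sample 2 or GapmeR sample 4 was left out.

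Among 7 other receptor chains of the family, 6 were tested and 1 passed the test. The gene was Il12rb2, a chain of the interleukin-12 receptor, named here after its values were seen. It had 2 and 1 counts in the controls against 14, 17, 18 and 8 counts across GapmeR samples 1 to 4 (pooled ratio of counts 9.18, 95% counting interval 2.99 to 45.8, adjusted p = 0.0023). Il11ra1, the alpha chain for interleukin-11, was at 13.7 ± 0.859 CPM (SD, n = 2) in the controls and 12.8 ± 0.784 CPM (SD, n = 4) with the GapmeR. Its value is uncertain, since near-identical copies of the gene can share reads.

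Of 14 Janus kinases, adaptors and other STATs, all were tested, 5 fell and 2 rose (50% called, against 45.3% of all genes), with a median log2 fold change of -0.07. Stat5b, which acts below growth hormone and other cytokine receptors, rose from 32.0 to 51.9 CPM (log2 fold change 0.70). Grb2, an adaptor to the RAS pathway, fell by 0.40 on the log2 scale.

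Of the Janus kinases that bind gp130, Jak1 fell from 207 to 170 CPM (log2 fold change -0.29, adjusted p = 0.0042) and Tyk2 rose slightly (0.25, adjusted p = 0.0128). The log2 fold change of Jak2 was -0.05 (adjusted p = 0.652). Jak1 no longer passed with libraries scaled by size only or without negative control sample 2 (adjusted p = 0.108 and 0.0877), Tyk2 no longer passed without negative control sample 1 (adjusted p = 0.0953), and the direction of Jak2 flipped under 4 alternatives. The number of the list that rose was 1 without negative control sample 1, and the number that fell was 2 under scaling by size, 3 without negative control sample 1 and 2 without negative control sample 2.

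Feedback inhibitors comprised SOCS proteins, tyrosine phosphatases and PIAS proteins. Of the 15, all were tested, 5 fell and 1 rose. Socs3, which binds gp130 and is itself induced by STAT3, was at 45.8 and 45.3 CPM in the controls against 24.8, 23.9, 26.7 and 21.9 CPM across GapmeR samples 1 to 4. It fell 1.88-fold (log2 fold change -0.91, adjusted p = 2.3e-07). The other SOCS genes named by the rule were Socs7 (-0.53) and Socs2 (-0.41), and Socs2 no longer passed without negative control sample 2 (adjusted p = 0.0549). The riser was Ptpn6, the phosphatase SHP-1 of blood cells, from 0.892 to 3.18 CPM (log2 fold change 1.82). It was at 0.876 and 0.909 CPM in the controls against 2.18, 2.26, 3.74 and 4.55 CPM across GapmeR samples 1 to 4. With GapmeR samples 3 and 4 left out, a choice made after seeing the data, its log2 fold change was 1.33. Samples 3 and 4 also had the highest summed macrophage markers, and a link between the 2 was not tested. The number that fell was 3 without negative control sample 1 and with scaling by size, and 2 without negative control sample 2. The number that rose was 2 without GapmeR sample 2.

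Genes that control release of the receptors from the cell surface were tested for all 6 listed, of which 2 fell and 4 did not pass the test. Adam10, a sheddase of the IL-6 receptor, fell by 0.47 on the log2 scale. Timp3, an inhibitor of such proteases, fell by 0.73. The number that rose was 2 under scaling by size and 1 without GapmeR sample 2.

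Known target genes of STAT3 were examined as a further list. Of 33 genes listed, 26 were tested, 16 fell and 4 rose, and the median log2 fold change was -0.42 against 0.03 for all genes tested. Cebpd, a C/EBP transcription factor of the acute phase response, was at 145 CPM in each control against 53.5, 49.4, 60.9 and 48.8 CPM across GapmeR samples 1 to 4. It fell 2.74-fold (log2 fold change -1.45, adjusted p = 8.1e-10). Bcl2l1, which encodes the survival protein BCL-XL, fell from a mean ± SD of 385 ± 8.32 CPM over the 2 controls to 186 ± 14.2 CPM over the 4 GapmeR samples, for a log2 change of -1.05. Irf1, an interferon regulatory factor, fell by 0.87.

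Lrg1, a secreted glycoprotein of vessels, rose from 0.373 to 1.48 CPM (log2 fold change 1.97, adjusted p = 0.00036). Named after their values were seen, the immediate-early factors Junb and Fos fell by 0.63 and 0.77, the kinase gene Pim1 by 0.68 and Myc by 0.43, whereas the stress gene Gadd45g rose by 0.63. The acute phase genes of liver on the list were at or near 0. Fga, Fgb and Saa2 had no counts in any sample, Fgg and Lcn2 did not pass the filter, and Hp, Saa1 and Saa3 were tested at mean levels below 1 CPM without passing the threshold. Many of these target genes also respond to other pathways, and the list is a description without a test of its own.

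Regulators of Il6 transcription and of its messenger RNA included genes that rose and genes that fell. Of 23 listed, 22 were tested, 7 fell and 3 rose (45.5% called, against 45.3% of all genes), and the median log2 fold change was -0.08. Beside Cebpd, the rule named Cebpb, another C/EBP factor first described as a regulator of IL-6, and the prostaglandin synthase gene Ptgs2. Cebpb fell by 0.60 on the log2 scale (-0.40 without negative control sample 1 and -0.74 without negative control sample 2). Ptgs2 fell by 0.49. Nfkbiz, which encodes a nuclear partner of NF-kappa B needed for IL-6 induction, rose from 35.0 to 55.5 CPM (log2 fold change 0.67, adjusted p = 1.8e-05). Of the NF-kappa B subunits, named after their values were seen, Nfkb1 rose by 0.22 on the log2 scale, Nfkb2 fell by 0.39 and the value of Rela was -0.23 (adjusted p = 0.0624). Under scaling by size 8 genes of the list rose, and 1 rose without negative control sample 1.

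Other class I cytokine receptors, which share the fold of the IL-6 receptors, were listed for comparison. Of 21 listed, 16 were tested, 6 fell and 2 rose (50% called, against 45.3% of all genes), with a median log2 fold change of -0.24. Ghr, the growth hormone receptor, fell from 59.6 to 24.1 CPM (log2 fold change -1.30), a size close to that of Lifr. Il13ra1, a chain of the interleukin-13 receptor, fell by 1.23, Il15ra, the interleukin-15 receptor alpha chain, fell by 0.86 and Il3ra, the interleukin-3 receptor alpha chain, fell by 0.43. The number that rose was 5 under scaling by size, 6 without GapmeR sample 2 and 1 without negative control sample 2. Cebpb, Cebpd, Zfp36 and Il4ra each stand in 2 of the lists, so that the counts of lists are not independent of each other.

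**Figure D5:**
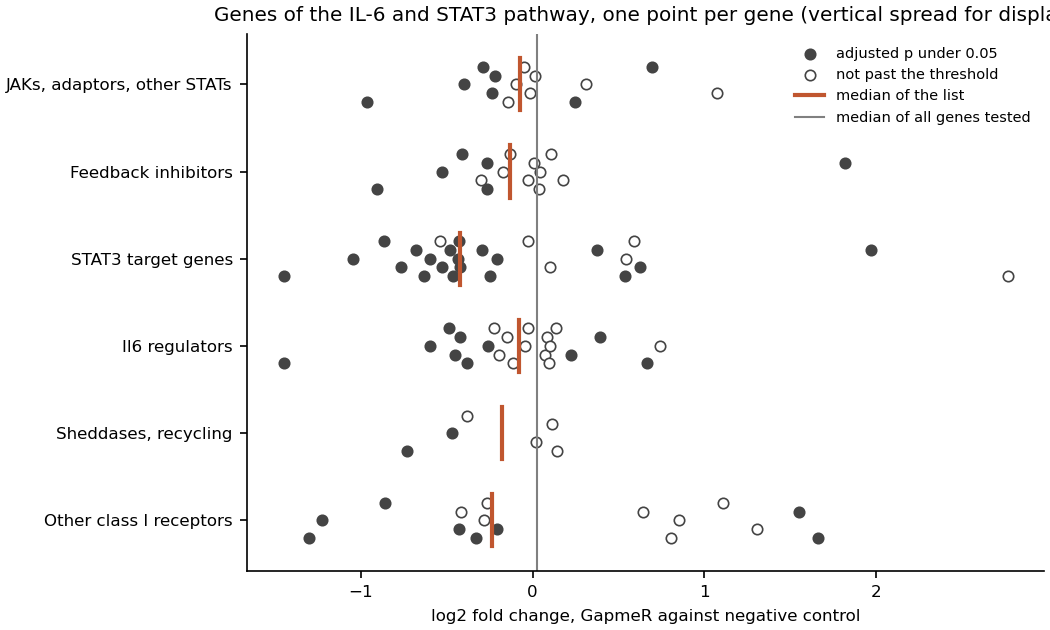
Log2 fold change, GapmeR against negative control, of each gene tested in 6 of the 8 lists, filled where the adjusted p was under 0.05, with the median of each list in red and that of all genes tested as a grey line. The STAT3 target genes have a median of -0.42, with 16 genes lower and 4 higher, and the regulators of Il6 have a median of -0.08.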

How the data were processed

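Whole-number read counts per Ensembl gene were deposited by the authors without normalization. Per the submitters' processing notes the tools were Trimmomatic 0.36, STAR 2.5.2b and Subread 1.5.2, and the build was mm10 (GRCm38). Neither strand setting nor Ensembl release is given in the sources used here. The study gives 4 samples per group. Counts of 4 GapmeR and 2 negative control samples were used, and 1 further column of per-sample counts, headed in the style of the control columns but matching no sample's labels, was not used. All replicates differed by more than sampling noise, with a chi-square per degree of freedom of 5.41 to 25.2 between replicates. The floor of 3 counts and all counting intervals cover counting error only.

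The filter of 5 or more counts in 2 or more samples left 18234 genes, which were tested with edgeR 4.0.16 (R 4.3.3; TMM, robust quasi-likelihood test, Benjamini-Hochberg adjustment). The biological coefficient of variation was 8.42%. TMM factors of the controls were 0.931 and 0.936, and those of GapmeR samples ranged from 1.02 to 1.05. Data were simulated with the library sizes and dispersions of this comparison, with 200 genes changed, and 17713 genes passed the filter. There edgeR recovered 27 of 60 genes changed 1.5-fold, 45 of 68 changed 2-fold and 57 of 62 changed 4-fold. Of its 138 calls, 9 were false. In the real data 45.3% of genes tested were called, a far larger share, so these recovery rates need not hold there. Alternatives were DESeq2 1.42.0, limma-voom (limma 3.58.1), other scalings and filters, the replicate block, other pseudocounts and each sample left out. Exon lengths (GENCODE vM39, GRCm39) were known for 17965 genes tested, gene positions and promoters are RefSeq GRCm38.p6, and exact tests used scipy 1.17.1.

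The genes and lists were chosen with earlier results of these data known. Named were the 8 family genes and Gm39822, up to 4 genes per list with the largest change among those with an adjusted p under 0.05 and a mean of at least 1 CPM, and Socs3, Jak1, Jak2 and Tyk2. Of the genes this rule named, 1 is not reported here. Of each marker list the most abundant gene and any gene at 0 throughout were named, and for Il6 and Stat3 the 3 genes of mean at least 1 CPM with the most similar profiles of log2(CPM + 0.5). Symbols held by several identifiers were represented by the one with most counts.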

Additional observations from a re-analysis of the deposited data

Results flagged for a closer look

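Within the 4 GapmeR samples, 41 sets of values were examined for 1 sample far from the others by Dixon's ratio, the gap to the nearest sample divided by the whole range, against its 95% critical value. Chance flags about 1 in 20 such sets, and 5 exceeded that value. Il11 was high in GapmeR sample 2 (ratio 0.875), and Jak2 was high in GapmeR sample 1 (0.942). The log2 ratio of Il6ra to Il6st was low in GapmeR sample 1 (0.853). Summed endothelial markers were low in GapmeR sample 2 (0.904), and summed fibroblast and mural markers were high in GapmeR sample 3 (0.906).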

How the results depend on the processing

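Il6, Lifr, Osmr and Stat3 kept their direction and stayed under the threshold in all 14 alternatives run for each, with log2 fold changes of -1.15 to -0.95, -1.45 to -1.05, -0.67 to -0.44 and -0.49 to -0.31. Il11 was lost without negative control sample 1 (1.75). Leaving out each sample in turn gave 1.75 to 3.03 for Il11, -0.24 to 0.0024 for Il6ra, -0.099 to 0.046 for Jak2 and 0.15 to 0.21 for Il6st, and 0 to 2 family genes higher and 4 lower each time. Across all genes it gave 1930 to 3949 lower, 2262 without negative control sample 1 and 1930 without sample 2, against 3643.

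Scaling by library size only moved the median log2 fold change of all genes from 0.03 to 0.17 and the split from 4625 higher and 3643 lower to 6106 higher and 2135 lower. There Il6ra was at 0.0037, Il6st passed at 0.33, 2 family genes were higher, and Jak2 was at 0.10. Without negative control sample 2 Il6ra was at 0.0024 and Jak2 at 0.046. Il6st also passed with at least 10 counts in every sample (0.23). Of all genes, 1390 were lower with 1.5-fold also required.

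Under scaling by size, 2 other receptor chains rose, 2 Janus kinases, adaptors and STATs fell, 3 feedback inhibitors rose and 3 fell, 2 sheddase genes rose, 8 Il6 regulators rose and 5 class I receptors rose. With at least 10 counts in every sample, 0 other ligands, 0 other receptor chains and 0 class I receptors rose and 2 feedback inhibitors rose, as 2 did with DESeq2 and with limma-voom. With genes kept from 1 count in total, 1 other ligand fell and 6 class I receptors rose. Leaving out each sample gave 0 to 1 other ligands lower, 1 to 3 Janus kinases, adaptors and STATs higher and 2 to 6 lower, 1 to 2 feedback inhibitors higher and 2 to 6 lower, 0 to 1 sheddase genes higher, 1 to 3 Il6 regulators higher and 1 to 6 class I receptors higher. The causes were not tested.

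With the replicate number as a block, on GapmeR and control samples 1 and 2, Il6 was at -0.96, Lifr at -1.06, Osmr at -0.55, Stat3 at -0.41, Il11 at 2.37, Il6st at 0.20 and Jak2 at 0.021, and 4 family genes were lower and 1 was higher. There 1 other ligand fell and 4 class I receptors rose. Same-numbered samples' deviations correlated at -0.06 and 0.12 over 10922 genes, so the numbers are not shown to pair samples. GapmeR samples 1 and 2 against both controls, an alternative chosen after seeing the data, gave 1 other ligand lower and Jak2 at 0.023.

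With at least 10 counts in every sample Lif, Il11, Cntf and Gm39822 were not among the genes tested, nor was Gm39822 without either control sample. Leaving out 1 control assumes that the other varies like the GapmeR samples. With 2 controls and few counts of Lif and Il11, depth limits both genes. Genes with few counts are also those that the simulated test recovered least often.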
